A study of Mus musculus with 2 samples.

Results

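Mature dendritic cells of the mouse abdominal aorta were described here from 61 cells that carried *Ccr7* and *Fscn1* transcripts together, out of 35848 retained cell barcodes. They were selected on measured values: at least 3 unique molecular identifiers (UMIs, each standing for 1 captured RNA molecule) of the MHC class II gene *H2-Ab1*, at least 2 of *Ccr7* and at least 1 of *Fscn1*, with no UMI of *Cd3d*, *Cd3e*, *Cd3g* or *Cd79a*, at most 2 of the 3 *C1q* genes together and under 10 of *S100a8* and *S100a9* together. All 61 came from the library of mice given angiotensin II (AngII) with high salt (AngII+HS), and none from the control library.

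The tissue was the abdominal aorta of 5-month-old male C57BL/6J mice, taken at day 28. AngII+HS mice received AngII at 1.5 µg/kg/min together with drinking water that held 0.9% NaCl and 0.2% KCl, a model of abdominal aortic aneurysm, and Control mice received saline. Aortas were pooled into 1 droplet library per condition: the series design gives 5 mice a pool, whereas the extraction text gives 1 control mouse and 2 AngII mice, and individual mice cannot be told apart. With 1 library per condition no difference between conditions or between cell types could be tested, so all intervals below are 95% intervals for counting error only, and 2 values whose intervals do not overlap may still differ by chance between animals.

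In all, 86618995 UMIs were counted over 11448 barcodes of Control (7487 in the median barcode) and 117146856 over 24804 barcodes of AngII+HS (3506), and 11288 and 24560 barcodes were retained. Retained Control cells were the deeper ones, with a median of 7576 UMIs against 3550. Of the barcodes, 67 occurred in both libraries, which is 0.585% of the smaller list. The barcode list recorded under each sample carried the name of the other sample, and the count matrices were assigned by the sample they were recorded under. Which library holds the mature dendritic cells rests on that assignment, and whether the matrices are crossed as the lists are was not tested. Under the assignment used, smooth muscle cells were 38.2% of the retained Control barcodes and 3.42% of those of AngII+HS, macrophages 4.15% and 12.3%, and neutrophils 0.957% and 13.3%.

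Dendritic cells take up antigen in tissues and, once activated, stop capturing it, raise the chemokine receptor CCR7 and travel through lymphatic vessels to lymph nodes, where they present peptides to T cells. CCR7 follows the chemokines CCL19 and CCL21, the latter made by lymphatic endothelium, and fascin, the product of *Fscn1*, bundles actin into the long protrusions that give mature dendritic cells their shape. In the resting state most tissue dendritic cells belong to type 1 (cDC1, which take up dead cells and present on MHC class I) or type 2 (cDC2, which favour MHC class II and CD4 T cells). The same activated programme, often described with a module of regulatory genes such as *Cd274*, *Cd200*, *Socs2* and *Il4i1*, can be entered from either type.

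The 61 cells made up 0.248% of the retained AngII+HS barcodes (exact binomial interval 0.190 to 0.319%). In Control 0 of 11288 barcodes met the rule, so that up to 0.0266% is allowed at a limit of 3 counts, and up to 0.0327% by the exact binomial bound. As comparators the same filters were used with at least 2 UMIs of *Cd209a* for cDC2-like cells (104 in AngII+HS, 10 in Control) or at least 2 of *Xcr1* and *Clec9a* together for cDC1-like cells (42 and 5). Cells were assigned in order, mature first, then cDC1-like, then cDC2-like, so a cell that met the mature rule could not be a comparator. Among these dendritic cells the mature cells were 29.5% of 207 in AngII+HS (23.4 to 36.2%) and 0 of 15 in Control, which allows up to 20% (3 of 15, the exact bound being 21.8%). The Control denominator of 15 cells is thus small, and the share of dendritic cells that are mature was poorly bounded there. Under stricter cell filters, after removal of likely doublets, under stricter *Ccr7* and *Fscn1* limits and after thinning, between 40 and 61 cells were found in AngII+HS and 0 in Control.

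Of the 11288 Control cells 88 held 2 or more UMIs of *Ccr7* and 450 held *Fscn1*, against 819 and 2694 of the 24560 in AngII+HS. In Control 1 cell alone held both and it lacked the *H2-Ab1* UMIs. In AngII+HS 96 cells passed the first 3 conditions, and each exclusion taken alone removed between 6 (the *S100a8* and *S100a9* limit) and 15 of them (the *C1q* limit). Within the 61 cells *Ccr7* ranged from 2 to 24 UMIs a cell with a median of 11, *Fscn1* from 1 to 35 with a median of 8, and *H2-Ab1* from 3 to 80 with a median of 16. For *Ccr7*, 36 cells held 10 or more UMIs and the other 25 held 2 to 7. The selected cells were therefore a mixture of cells far inside and near the limits, as the plot of both transcripts by cell shows.

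**Figure D1:**
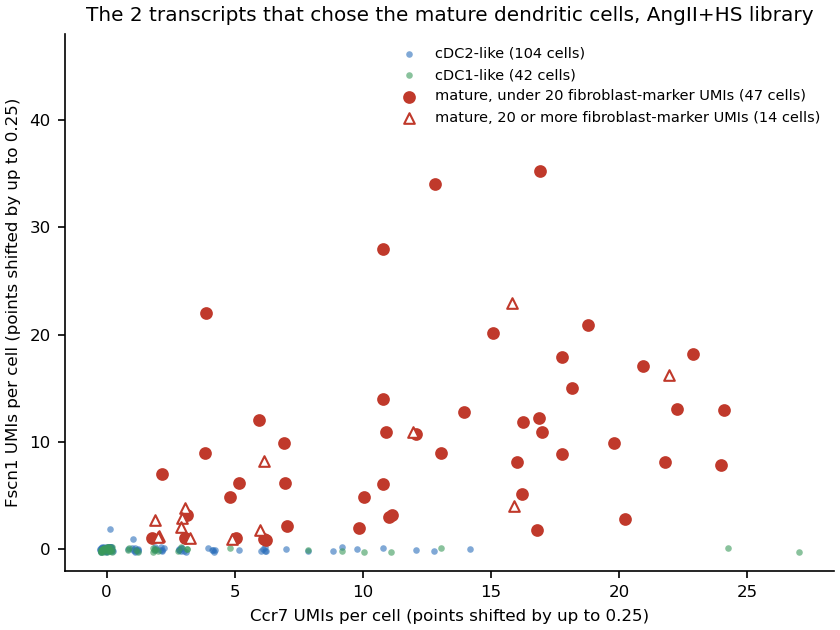
*Ccr7* (x axis) and *Fscn1* (y axis) UMIs in each dendritic cell of the AngII+HS library, with filled circles for the 47 mature cells under 20 fibroblast-marker UMIs, open triangles for the 14 with 20 or more, and small dots for the 104 cDC2-like and 42 cDC1-like cells. Both transcripts chose the mature cells, whose *Ccr7* counts run from 2 to 24. Mature cells were assigned first, so comparators with 2 or more *Ccr7* UMIs hold no *Fscn1*, which amounted to 3 UMIs in 2 cDC2-like cells.

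Just outside the limits lay 11 AngII+HS cells with 1 UMI of *Ccr7* and at least 1 of *Fscn1*, and 226 with at least 2 of *Ccr7* and no *Fscn1*, the other conditions being met. Just inside lay 11 cells with 2 or 3 UMIs of *Ccr7* and 9 with 1 of *Fscn1*. Of the 11 just inside by *Ccr7* 7 held 20 or more UMIs of the fibroblast markers described below, against 3 of the 11 just outside. *Il4i1*, a secreted amino acid oxidase that restrains T cells, stood at 96.3 CPM (the UMIs of a gene per 1000000 UMIs of the cells combined) in the 11 cells just inside (10 UMIs, 5 of them in 1 cell) and at 12.7 in the 11 just outside. *Fabp5*, a carrier of fatty acids in the cytosol, stood at 992 and 203 CPM in these cells, with 62 of the 103 UMIs inside in 1 cell. *Socs2* (67.4 and 76.3), *Mreg* (77.1 and 102) and *Ccl5* (77.1 and 458), described below, were not higher just inside. The 226 cells without *Fscn1* held 147 CPM of *Il4i1* and 371 CPM of *Fabp5*, with *Ccr7* at 932 CPM. Of those 226, 36 were cDC2-like and 17 cDC1-like, so *Ccr7* was found in both comparators. That these cells lacked *Fscn1* follows from the order of assignment, since with *Fscn1* they would have been counted as mature.

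Transcripts of fibroblasts were carried by part of the mature cells. Of the 61, 14 held 20 or more UMIs of the 6 fibroblast markers, and these 14 had a median of 13285.5 UMIs a cell against 5333 in the other 47, contributing 38.9% of all UMIs of the mature cells. The 6 markers summed to 13562 CPM, led by *Col1a1* at 4344 CPM, against 3390 CPM in cDC2-like, 4093 in cDC1-like and 9474 in T cells. A doublet score (Scrublet) placed 13 of the 14 and 6 of the other 47 among the highest scores of the library. These scores covered 19.6% of its retained cells, 26.9% of the cDC2-like and 23.8% of the cDC1-like cells. The 14 held less of the genes that the mature cells led with: *Il4i1* at 111 against 755 CPM, *Ccl22* at 80.2 against 1113 and *Fabp5* at 1672 against 5752. Values without these cells, with the comparators freed of such cells too, are given below for gene lists over cDC2-like cells, in the text or in the plot of list medians. They are also given for some lists over cDC1-like cells and for some genes. The source of the transcripts was not tested.

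Markers of the other excluded lineages were low. The 11 T cell markers summed to 14.4 CPM in the mature cells against 2726 in T cells, with *Trbc1*, *Trbc2*, *Lck* and *Cd28* at 0. The B cell markers summed to 295 CPM, of which *Ebf1* gave 247 (82.6 in the 47 cells with few fibroblast transcripts), against 6541 in B cells, with *Pax5* and *Cd22* at 0. The macrophage markers summed to 990 CPM, led by *Apoe*, against 15828 in macrophages and 1260 in cDC2-like cells. The lineage factors of dendritic cells were carried by most of the cells: *Flt3*, the receptor of the growth factor they depend on, was found in 72.1% and *Zbtb46*, a factor of conventional dendritic cells, in 70.5%, against 0.230% and 9.90% of T cells, whose median depth was 2682 UMIs against 5506 in the mature cells. *Itgax*, the integrin chain CD11c, stood at 19.2 CPM against 128 in cDC2-like cells, and *Ikzf1* and *Bcl6* were the other lineage genes at least 2-fold lower. *Flt3* and *Zbtb46* had not been used by the selection.

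Against cDC2-like cells of the same library, 3654 genes had at least 50 UMIs over both populations. Of these 376 (10.3%) were at least 2-fold higher and 289 (7.91%) at least 2-fold lower in the mature cells, with a median log2 ratio over all genes of -0.03, each ratio being of CPM with 0.5 UMI added. Against cDC1-like cells 473 of 2849 genes (16.6%) were higher and 292 (10.2%) lower. The split between higher and lower depended on scaling: higher genes were 56.5% of those past 2-fold over cDC2-like cells and 45.9% with TMM factors, and 61.8% and 51.6% over cDC1-like cells, TMM moving the median of all genes by -0.14 over cDC2-like cells. Without the cells holding 20 or more fibroblast-marker UMIs, 292 of 2579 genes were higher (11.3%) and 344 lower (13.3%) than in cDC2-like cells, and 292 of 2083 were higher (14.02%) and 294 lower (14.1%) than in cDC1-like cells. Higher genes were then 45.9% and 49.8% of those past 2-fold, so that the excess of higher over lower genes was not seen without these cells. The same cells were chosen by measured transcripts, so these shares describe the cells and were given no test.

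*Fabp5* was far higher in the mature cells than in either comparator. Per cell it ranged from 0 to 257 UMIs per 10000 UMIs with a median of 30.02 in the mature cells, whereas the median was 0 in both comparators. Summed levels were 4163 CPM in the mature, 224 in the cDC2-like and 152 in the cDC1-like cells, a log2 ratio over cDC2-like cells of 4.21 (3.98 to 4.47). A UMI of *Fabp5* was found in 85.2% of the mature, 40.4% of the cDC2-like and 28.6% of the cDC1-like cells, and in 23.1% of T cells. After thinning each cell to 2000 UMIs these shares were 80.0%, 16.8%, 2.38% and 15.7%. The share in the mature cells thus lay far above that in T cells, which gives the level of background and of other use of this gene.

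**Figure D2:**
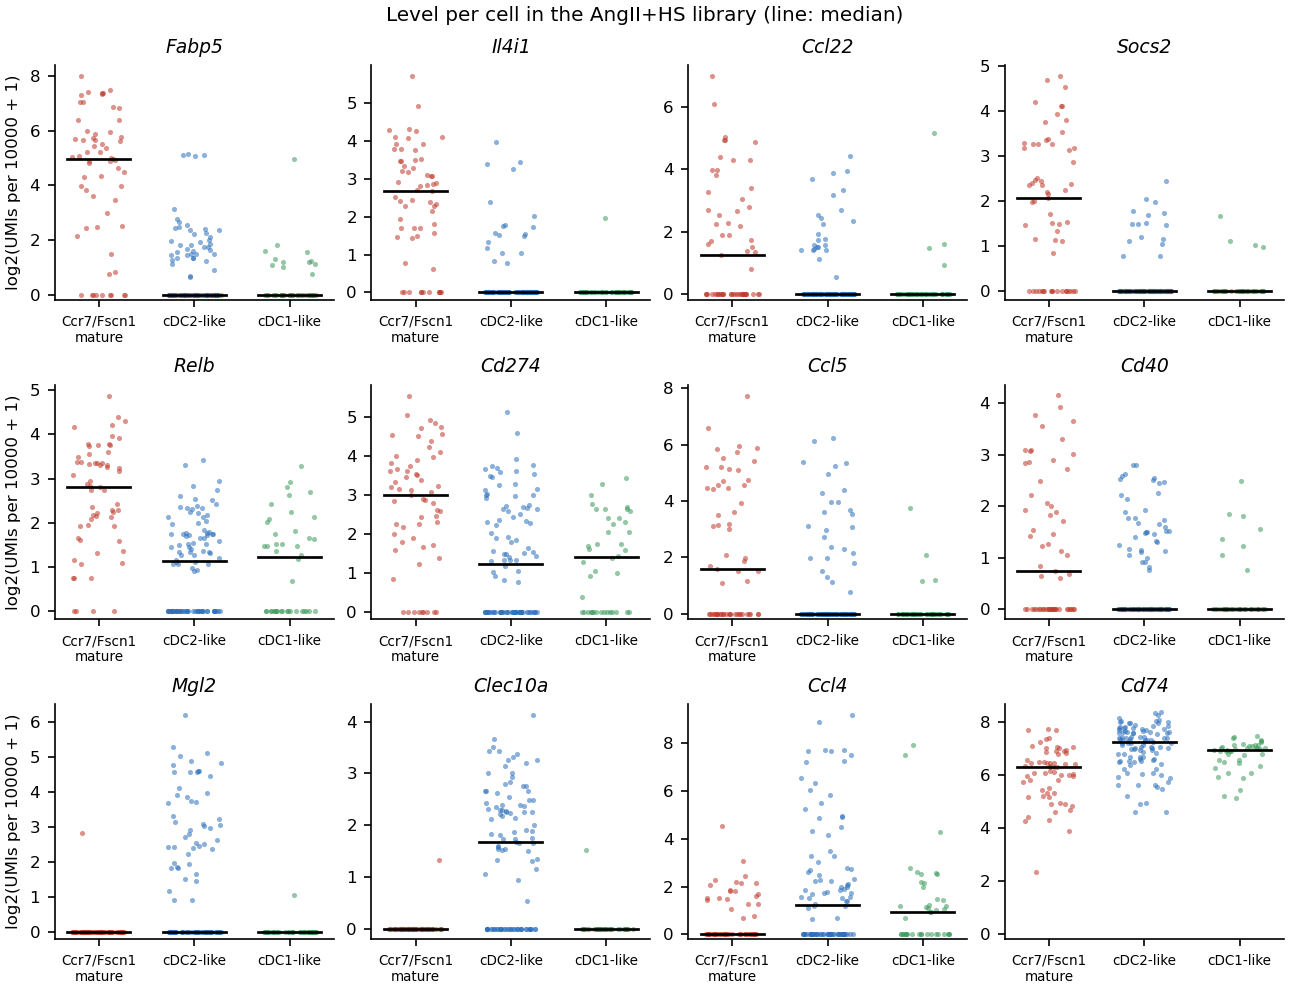
Level of 12 genes in each cell of the AngII+HS library as log2(UMIs per 10000 UMIs + 1) on the y axis, for the 61 Ccr7/Fscn1 mature, 104 cDC2-like and 42 cDC1-like cells on the x axis, each point 1 cell and the line the median. *Fabp5* has a median of 30.02 per 10000 UMIs in the mature cells and 0 in both comparators, while *Clec10a* has a median of 0 in the mature and 2.18 in the cDC2-like cells.

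The 15 genes with the highest ratios over cDC2-like cells, among those carried by at least 25% of the mature cells, fell into those shared and not shared with cDC1-like cells. *Ly75*, the endocytic receptor DEC-205, stood at 300.3 CPM in the mature, 6.01 in the cDC2-like and 275 in the cDC1-like cells, *Tbc1d8* at 574, 37.5 and 520, and *Btla*, an inhibitory receptor, at 108, 9.01 and 171. For these 3 the log2 ratio over cDC1-like cells was 0.13, 0.14 and -0.65, so the mature cells lay within 2-fold of cDC1-like cells in them. In contrast, *Mreg*, which acts in the transport of organelles, stood at 327 CPM against 15.02 and 8.005, *Socs2*, a suppressor of cytokine signalling, at 411 against 42.1 and 13.3, and *Il4i1* at 505 against 64.6 and 8.005. These 3 genes were at least 2-fold higher than in either comparator. Their log2 ratios over cDC2-like cells were 4.38, 3.27 (2.71 to 3.92) and 2.95 (2.49 to 3.47).

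The same held for *Cacnb3*, a subunit of voltage-gated calcium channels (151, 7.51 and 18.7 CPM), *Anxa3*, a phospholipid-binding annexin (344, 39.0 and 18.7), *Zmynd15* (147, 4.51 and 5.34), *Nostrin* (149, 15.02 and 8.005), *Strip2* (192, 4.51 and 64.0), *Serpinb6b*, an inhibitor of serine proteases (308, 36.05 and 112), and the predicted gene *Gm33100* (142, 3.004 and 2.67). *Dpp10* had 58 UMIs in 16 of the 61 cells and none in cDC2-like cells, which is at least 30.9-fold higher than 3 UMIs over that population. Without the cells holding fibroblast transcripts *Cacnb3* had 56 UMIs in the mature and 0 in the cDC2-like cells. Its log2 ratio was then 7.81 beside 4.21 with them, and that of *Anxa3* 3.85 beside 3.11. Of 21 named genes measured in this way, 17 stayed within the range of counting error. Both *Il4i1* and *Socs2* were carried by most of the mature cells and by a minority of each comparator. *Il4i1* was carried by 82.0% of the mature, 18.3% of the cDC2-like, 2.38% of the cDC1-like and 1.27% of the T cells, and *Socs2* by 70.5%, 15.4%, 9.52% and 10.8%. Thinned to 2000 UMIs, *Il4i1* was found in 60.0%, 9.90%, 2.38% and 0.597% and *Socs2* in 48.3%, 4.95%, 2.38% and 6.87% of these cells.

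The 10 genes with the lowest ratios included several surface proteins. *Clec10a* and *Mgl2*, lectins that bind galactose-type sugars, stood at 2.40 and 9.61 CPM in the mature cells against 248 and 553 in cDC2-like cells (log2 ratios -6.11 and -5.68), and each was found in 1 of the 61 cells. *Itgam*, the integrin chain CD11b, stood at 12.0 against 182 CPM, *Cd14*, a co-receptor for bacterial lipopolysaccharide, at 45.6 against 527, and *Ccl4*, an inflammatory chemokine, at 156 against 2241. *Cd180*, a Toll-like receptor homologue, *Lpxn*, *Clec4b1*, *Atp8b4* and *Gm46224* had log2 ratios between -4.88 and -3.41. Both lectins, *Itgam*, *Cd14* and *Cd180* encode surface proteins of myeloid cells. *Ccl4* was uneven: its median per 10000 UMIs was 0 in the mature and 1.35 in the cDC2-like cells, and 1 cell held 50.8% of its UMIs in the mature cells.

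**Figure D3:**
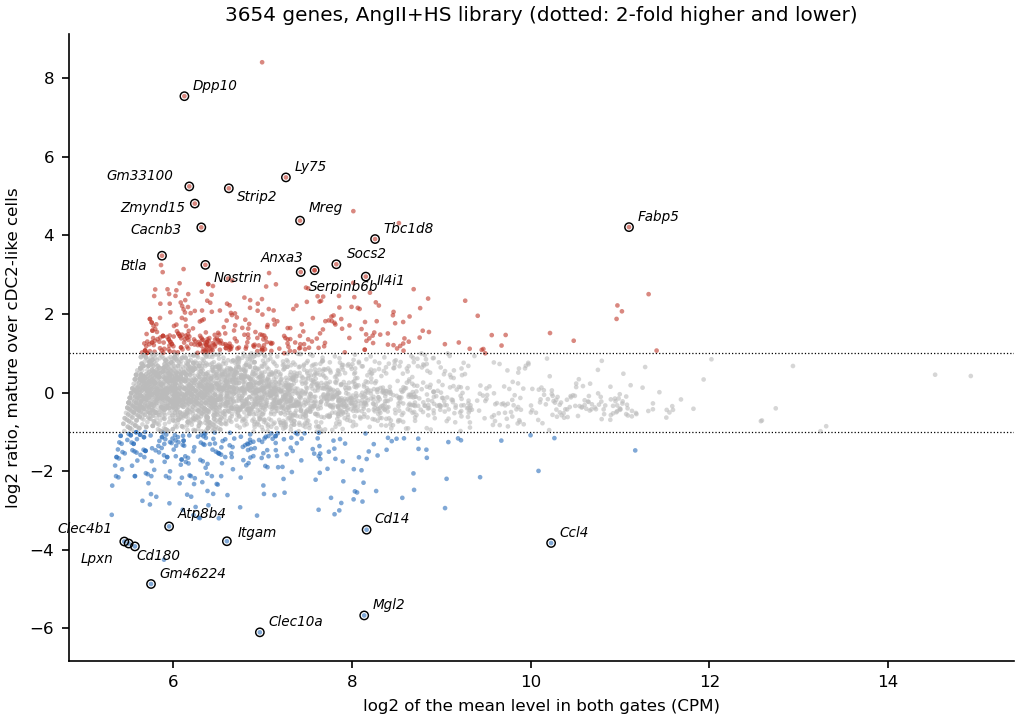
Log2 ratio of the mature over the cDC2-like cells (y axis) against the log2 of the mean CPM of both (x axis) for 3654 genes of the AngII+HS library, with red and blue points for genes at least 2-fold higher (376) and lower (289), and circles around the 25 genes named by rule. The circled high genes reach from *Il4i1*, at 2.95, to *Dpp10*, which had no UMI in cDC2-like cells, and the lowest is *Clec10a*, at -6.11.

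Genes of cell motility and of the actin skeleton were mixed. Of 25 measured, 6 were at least 2-fold higher and 5 lower than in cDC2-like cells, beside 10.3% and 7.91% of all genes, with a median log2 ratio of -0.30 (-0.09 without the cells holding fibroblast transcripts). The higher ones act mostly on actin or the membrane beneath the cell surface. They were *Tbc1d4*, which regulates vesicle traffic, at 1761 against 616 CPM, *Cnn2* and *Lsp1*, which bind actin, at 187 against 76.6 and 959 against 479, *Marcks* and *Marcksl1*, which link actin to the membrane, at 1136 against 496 and 951 against 448, and *Myo1g*, a class I myosin, at 384 against 180. Among the lower ones were *Rac2*, a GTPase of leukocyte movement (64.9 against 164 CPM), the gut-homing integrin chain *Itgb7* (14.4 against 97.6) and the receptors for inflammatory chemokines *Ccr1* and *Ccr2* (12.0 and 14.4 against 88.6 and 143). These receptors for inflammatory chemokines were thus low in the cells chosen for their *Ccr7*. *Gpr183*, the oxysterol receptor that positions dendritic cells, stood at 723 CPM against 473 in cDC2-like and 96.1 in cDC1-like cells. Over cDC1-like cells 5 of 23 motility genes were higher and 4 lower (all genes 16.6% and 10.2%), with a median of 0.03. Without the cells holding fibroblast transcripts 8 of 22 were higher and 3 lower (all genes 14.02% and 14.1%), with a median of 0.38.

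The chemokines divided likewise, 4 of 13 being higher and 5 lower than in cDC2-like cells (all genes 10.3% and 7.91%) with a median of -0.33, which became 0.73 against comparator cells free of *Ccr7* and *Fscn1* and -0.55 without the cells holding fibroblast transcripts. Over cDC1-like cells 6 of 13 were higher and 4 lower (all genes 16.6% and 10.2%), with a median of 0.71. *Ccl22*, which draws regulatory and helper T cells through CCR4, stood at 711 CPM against 114 in cDC2-like and 107 in cDC1-like cells, a log2 ratio of 2.63 (2.27 to 3.02) over cDC2-like cells. Its UMIs were found in 52.5% of the mature cells and 0.230% of T cells, and 1 cell held 30.1% of them. *Ccl17*, the other ligand of CCR4, stood at 190 CPM against 338 and 82.7, but 1 cell held 41.8%, 47.1% and 93.5% of its UMIs in the mature, cDC2-like and cDC1-like cells, so its order rests on single cells. *Ccl5*, which attracts T cells and monocytes, stood at 1109.9 CPM against 403 and 80.0. *Ccl22* and *Ccl5* thus exceeded both comparators. Unlike *Ccl22*, *Ccl5* was carried by a similar share of T cells, 51.4% against 57.4% of the mature cells (45.5% and 51.7% after thinning). In the mature cells 1 cell held 21.0% of the *Ccl5* UMIs.

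*Ccl7* and *Ccl2*, which recruit monocytes, stood at 776 and 867 CPM against 147 and 455 in cDC2-like cells, but in cells with *Ccr7* of 10 or more they stood at 34.4 and 51.6 CPM, and in the 25 cells below at 1715 and 1900. Both were also high in the cells with fibroblast transcripts, at 1363 and 1339 CPM against 401 and 567 in the others. Those cells were 10 of the 25 with less *Ccr7* and 4 of the 36 with more, and without them and the comparator cells of that kind the log2 ratios over cDC2-like cells were 1.47 for *Ccl7* and 0.40 for *Ccl2*, beside 2.39 and 0.93 with them. Of what then remained, 1 cell held 91 of 102 *Ccl7* and 131 of 144 *Ccl2* UMIs, and without it the mature cells stood at 44.8 and 53.0 CPM, below the 145 and 430 of the cDC2-like cells. High *Ccl7* and *Ccl2* thus rested on few cells. *Ccl22* went the other way, at 1217 CPM in the cells with *Ccr7* of 10 or more and 70.8 in those below. *Il4i1* (688 and 272), *Fabp5* (5736 and 2172) and *Socs2* (632 and 131) also stood higher in the cells rich in *Ccr7*. *Cxcl9*, a ligand of CXCR3, had 60.7% of its UMIs in 1 cell. The lower chemokines were *Ccl3*, *Ccl4*, *Ccl6*, *Ccl9* and *Cxcl10*, with log2 ratios from -3.83 to -1.38.

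Of the ligands of CCR7 itself, *Ccl21a* had no UMI in the mature cells and *Ccl19* had 15, all of them in the 14 cells with fibroblast transcripts. *Ccl21a* was a transcript of lymphatic endothelial cells, at 6714 CPM in AngII+HS (63.8% of 163 cells) and 3197 CPM in Control (44.8% of 116 cells). *Ccl19* was found in fibroblasts, at 229 CPM in AngII+HS (53.6% of cells) and 126 in Control (32.4%). Each ligand thus had the higher level in the library that held the mature cells, and *Ccl21a* has near-identical copies between which reads may be split.

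**Figure D4:**
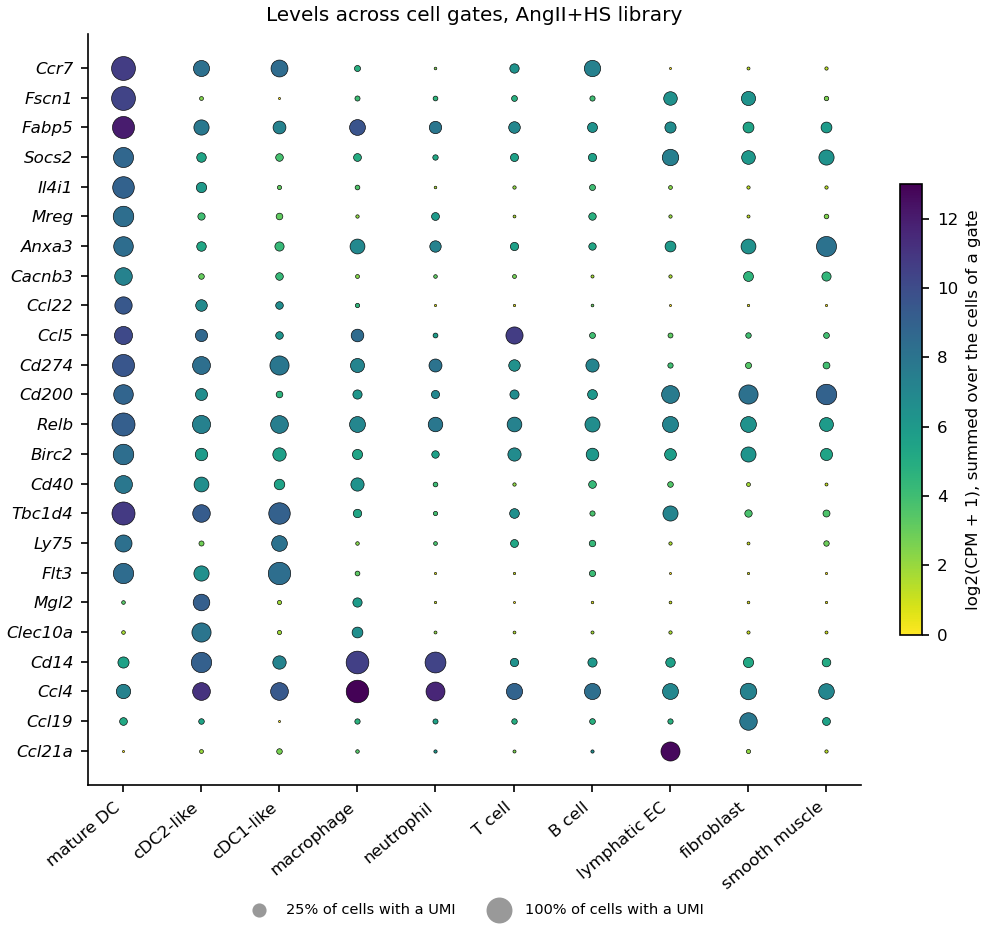
Levels of 24 genes (rows) in 10 cell gates of the AngII+HS library (columns), with colour giving log2(CPM + 1) over the cells of a gate and dot area the percent of its cells with a UMI. *Ccr7* and *Fscn1* chose the first column and *Ccl21a*, at 6714 CPM in lymphatic endothelial cells (lymphatic EC), is at 0 there.

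Inhibitory and regulatory genes held high and low members. Of 13 measured inhibitory and regulatory genes 6 were at least 2-fold higher and 4 lower than in cDC2-like cells (all genes 10.3% and 7.91%), with a median log2 ratio of 0.68 that became 1.38 without the cells holding fibroblast transcripts. The higher ones differ in what they do. *Cd274*, the ligand PD-L1, stood at 738 CPM against 314 in cDC2-like and 235 in cDC1-like cells. It was carried by 68.3% of the mature cells after thinning, against 31.7% and 33.3% of these and 15.4% of T cells. *Cd200*, which signals to an inhibitory receptor on myeloid cells, stood at 442, 101 and 24.0 CPM (476, 45.6 and 27.1 without the cells holding fibroblast transcripts). *Il2ra*, the alpha chain of the interleukin-2 receptor, stood at 151, 22.5 and 10.7. With *Fas*, a death receptor (161 against 40.6 CPM), *Socs2* and *Il4i1* these make up the 6. Among the lower ones were *Havcr2*, the receptor TIM-3 (26.4 against 120), *Cd300a* (55.3 against 206) and *Tgfb1* (86.5 against 231).

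Of 11 measured co-stimulatory genes 1 was higher, a share near the 10.3% of all genes, and 3 lower (all genes 7.91%), with a median of -0.30, which became 0.14 against comparator cells free of *Ccr7* and *Fscn1*. The higher one was *Cd40*, the receptor through which helper T cells license dendritic cells, at 233 CPM against 96.1 in cDC2-like and 45.4 in cDC1-like cells. *Cd86*, a ligand of CD28, stood at 714 against 746 CPM, and *Cd80*, the other such ligand, at 550 against 387 in cDC2-like cells. *Cd83*, a surface marker of maturation, stood at 507 against 637. These 3 genes of maturation thus lay within 2-fold of cDC2-like cells. *Tnfsf9*, *Cd48* and *Timd4* were the lower ones, with log2 ratios of -1.67, -1.64 and -1.14.

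Of the cytokines and their receptors most lay within 2-fold of cDC2-like cells. Of 20 measured 1 was higher and 7 lower (all genes 10.3% and 7.91%), with a median of -0.46 (-0.83 without the cells holding fibroblast transcripts), and over cDC1-like cells 4 of 18 were higher and 7 lower (all genes 16.6% and 10.2%). *Il1b*, the inflammasome-dependent cytokine, stood at 1218 against 3387 CPM and *Tnf* at 14.4 against 135. The other 5 lower genes were receptor chains, *Csf2ra*, *Il10ra*, *Il10rb*, *Ifnar1* and *Tnfrsf1a*. *Il21r* was the higher one, at 233 against 107 CPM. *Il12b*, the p40 chain of interleukins 12 and 23, had too few UMIs over cDC2-like cells to be measured there and stood at 93.7 CPM against 261 in cDC1-like cells.

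The genes of NF-kB, the factor family through which maturation signals act, lay mostly within 2-fold of cDC2-like cells. Of 23 measured 4 were at least 2-fold higher, beside 10.3% of all genes, and 0 lower, with a median of 0.03, which was -0.11 under TMM scaling. Without the cells holding fibroblast transcripts 4 were higher and 1 lower (all genes 11.3% and 13.3%), with a median of 0.16. *Relb* stood at 553 CPM against 162 and 181, and had medians of 6.01, 1.18 and 1.33 UMIs per 10000 in the mature, cDC2-like and cDC1-like cells. *Birc2* and *Traf3*, members of the complex that degrades the kinase upstream of RelB, stood at 332 against 60.1 and 50.7 CPM and at 271 against 123 and 152 CPM, and *Cd40* was the other. *Nfkb2*, the partner of RelB, had a log2 ratio of 0.99 (0.37 to 1.62). *Rel*, *Rela* and *Nfkb1*, the subunits of the other branch, had log2 ratios of -0.09, -0.22 and -0.22, within 2-fold of cDC2-like cells. Over cDC1-like cells 6 of 23 were higher, beside 16.6% of all genes, and 0 lower.

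The promoters of these genes were read for the NF-kB consensus motif, searched by name on both strands in the 250 bases before each RefSeq start (GRCm38.p6), with each of several overlapping matches counted. The motif was present for 8 of 18 genes of the NF-kB list with a promoter (44.4%), against 1204 of all 27018 genes (4.46%). It was present for 26 of 282 genes at least 2-fold higher than in cDC2-like cells (9.22%), against 206 of 2916 measured genes (7.06%), and for 0 of 11 of the 15 named higher genes that had a promoter. The list holds many known targets of the factor and was not chosen independently of the motif. Shown are the promoters of *Traf3* and *Il2ra*, both at least 2-fold higher, and of *Nfkb2*, each on the + strand with matches in capitals: 1 in *Traf3* starting 10 bases before the start, 2 overlapping ones in *Il2ra* starting 201 and 200 bases before, and 3 in *Nfkb2* starting 39, 38 and 11 bases before, the first 2 of which overlap. *Nfkb2* has further RefSeq starts, whose windows chr19:46305445-46305694 and chr19:46305680-46305929 held 1 match each. The windows shown, of *Traf3*, *Il2ra* and *Nfkb2*, were all chosen for their matches. Other genes at least 2-fold higher, among them *Birc2*, *Cd274*, *Cd200* and *Ccl22*, held none. A match is a string of letters and does not show binding.
Traf3 (chr12:111166120-111166369): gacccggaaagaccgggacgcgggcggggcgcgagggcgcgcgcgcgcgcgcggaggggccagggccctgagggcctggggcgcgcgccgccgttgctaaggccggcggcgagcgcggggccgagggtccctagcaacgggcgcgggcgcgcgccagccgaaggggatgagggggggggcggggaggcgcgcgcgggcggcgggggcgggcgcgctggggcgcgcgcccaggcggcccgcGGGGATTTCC
Il2ra (chr2:11642542-11642791): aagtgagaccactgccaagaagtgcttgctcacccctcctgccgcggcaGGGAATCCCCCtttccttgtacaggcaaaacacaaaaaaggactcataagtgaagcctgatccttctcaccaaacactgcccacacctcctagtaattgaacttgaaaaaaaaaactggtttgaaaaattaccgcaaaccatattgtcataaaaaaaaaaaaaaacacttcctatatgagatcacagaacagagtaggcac
Nfkb2 (chr19:46304487-46304736): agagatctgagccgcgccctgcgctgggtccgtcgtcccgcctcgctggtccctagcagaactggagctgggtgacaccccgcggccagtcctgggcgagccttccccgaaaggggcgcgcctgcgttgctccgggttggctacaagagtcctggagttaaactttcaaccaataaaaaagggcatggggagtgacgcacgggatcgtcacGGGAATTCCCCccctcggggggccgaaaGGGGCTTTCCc

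Genes of MHC class II presentation were mixed. Of those measured over both comparators, *H2-DMa* and *H2-DMb1* alone were at least 2-fold lower than in each. Of 14 measured genes 1 was higher and 3 lower than in cDC2-like cells (all genes 10.3% and 7.91%), with a median of -0.68 (-0.53 without the cells holding fibroblast transcripts), and over cDC1-like cells 3 of 13 were higher and 2 lower (all genes 16.6% and 10.2%), with a median of -0.20 (0.01 without those cells). *H2-DMa* and *H2-DMb1*, the chains of the molecule that exchanges peptides, stood at 106 and 76.9 CPM against 413 and 446 in cDC2-like and 435 and 544 in cDC1-like cells, and *H2-Ob* was the other gene lower than in cDC2-like cells. The molecules that carry the peptide and the invariant chain were less far apart: *H2-Aa* stood at 4666 against 7639 CPM, and *Cd74* at 7202 against 13056, with medians of 77.7 and 152 UMIs per 10000. *H2-Eb2* was the higher one, at 142 against 28.5 CPM. *H2-Ab1* helped to choose the cells and was left out.

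Part of the genes of MHC class I presentation stood higher than in cDC2-like cells. Of 20 measured 5 were at least 2-fold higher, beside 10.3% of all genes, and 0 lower, with a median of 0.69. Without the cells holding fibroblast transcripts 5 of 18 were higher and 2 lower (all genes 11.3% and 13.3%), with a median of 0.90. *Psme2*, a subunit of the proteasome activator PA28, stood at 569 CPM against 137 in cDC2-like and 240.2 in cDC1-like cells, *Psmb8*, a subunit of the immunoproteasome, at 473, 203 and 488, and *Nlrc5*, the transactivator of class I genes, at 166, 63.1 and 117. *H2-Q6* and *H2-Q7* also passed 2-fold, but are near-identical copies between which reads may be split. *B2m*, the light chain of all class I molecules, had a log2 ratio of 0.81 over cDC2-like and 0.74 over cDC1-like cells. The excess was thus over cDC2-like cells, since over cDC1-like cells 2 of 19 were higher, beside 16.6% of all genes, and 1 lower, with a median of 0.03.

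Antigen uptake and pattern recognition had the most genes past 2-fold of the 16 lists. Of 17 measured 13 were lower and 2 higher than in cDC2-like cells (all genes 7.91% and 10.3%), with a median of -2.26 (-2.16 without the cells holding fibroblast transcripts). Besides the lectins and *Cd14* above, the Fc receptor genes *Fcer1g* (435 against 1739 CPM) and *Fcgr2b* (28.8 against 150.2), the lysozyme gene *Lyz2* (81.7 against 397) and the Toll-like receptor gene *Tlr2* (28.8 against 93.1) were lower. The higher genes were *Ly75* and *Axl*, a receptor for dying cells (93.7 against 42.1 CPM). Of 13 genes measured over cDC2-like cells without the cells holding fibroblast transcripts, 1 was higher and 10 lower (all genes 11.3% and 13.3%). Over cDC1-like cells 3 of 7 were lower and 2 higher (all genes 10.2% and 16.6%), with a median of -0.07. Without the cells holding fibroblast transcripts 3 of 6 were lower and 1 higher (all genes 14.1% and 14.02%), with a median of -0.73. Most of the list could not be measured over cDC1-like cells.

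**Figure D5:**
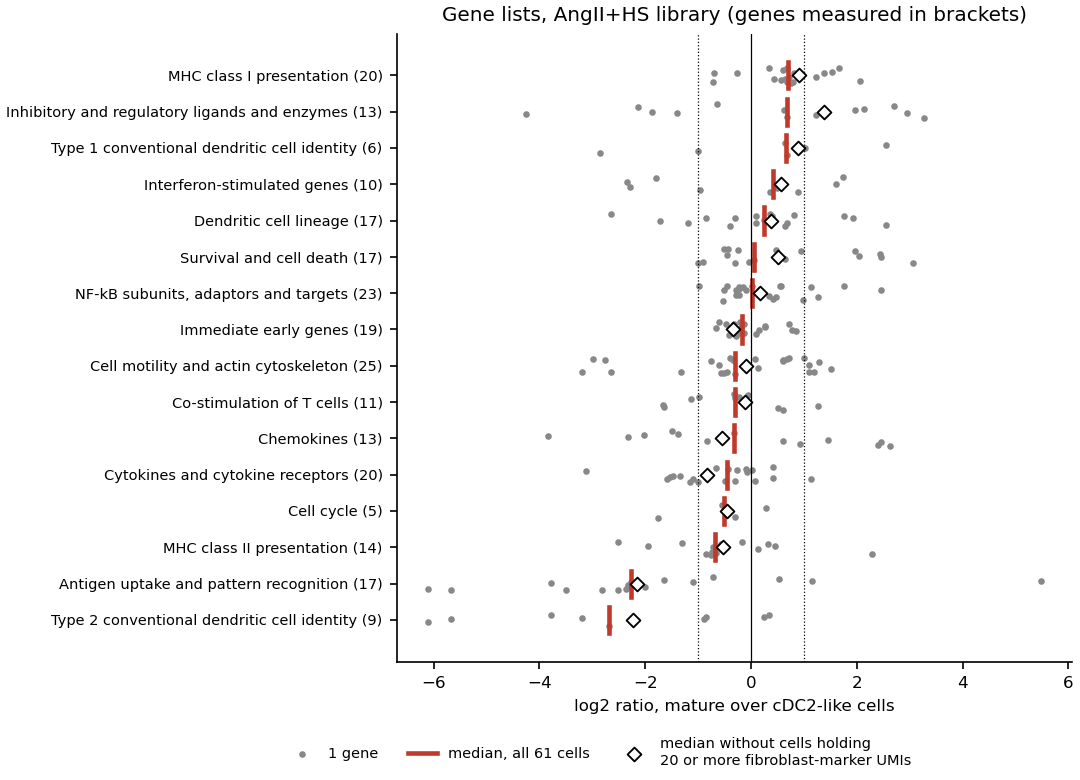
Log2 ratio of the mature over the cDC2-like cells of the AngII+HS library (x axis) for the measured genes of 16 lists (rows), with a dot for each gene, a red bar for the median and an open diamond for the median without cells holding 20 or more fibroblast-marker UMIs. The medians run from 0.69 for MHC class I presentation to -2.68 for type 2 dendritic cell identity, and dotted lines mark 2-fold.

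Whether the cells still carried the marks of type 1 or type 2 was read from the genes that define either. Of 9 measured cDC2 genes 5 were lower than in cDC2-like cells and 0 higher (all genes 7.91% and 10.3%), with a median of -2.68. Of 11 measured cDC1 genes 7 were lower than in cDC1-like cells and 0 higher (all genes 10.2% and 16.6%). Their median was -3.55 (-2.60 without the cells holding fibroblast transcripts). Each comparator was itself gated on genes of its type, which were left out of these counts. *Wdfy4* and *Naaa*, which are used by cDC1, stood at 12.0 and 14.4 CPM against 624 and 584 in cDC1-like cells, and *Cadm1* at 38.4 against 555. *Tnip3* stood at 101 against 655 CPM in cDC2-like cells.

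Some factors of the lineage stood at the level of cDC1-like cells. Of 17 measured genes of the dendritic cell lineage 3 were higher and 3 lower than in cDC2-like cells (all genes 10.3% and 7.91%), with a median of 0.25. Without the cells holding fibroblast transcripts 5 of 16 were higher and 2 lower (all genes 11.3% and 13.3%). *Irf8*, on which cDC1 depend, stood at 502 CPM against 576 in cDC1-like and 85.6 in cDC2-like cells, with a log2 ratio over cDC1-like cells of -0.20. *Flt3* stood at 346, 331 and 90.1 CPM and *Batf3*, the partner factor of *Irf8* in cDC1, at 88.9, 74.7 and 6.01 CPM. *Irf4*, which acts in cDC2, stood at 60.1 CPM against 110 in cDC2-like and 13.3 in cDC1-like cells. *Sirpa*, a surface receptor used to mark cDC2, stood at 156 CPM against 123 in cDC2-like and 48.03 in cDC1-like cells and, after thinning, was carried by 26.7%, 28.7% and 7.14% of these cells and 3.28% of T cells, which is nearer to the cDC2-like cells. Thus *Irf8*, *Flt3* and *Batf3* lay within 2-fold of cDC1-like cells, while *Wdfy4*, *Naaa* and *Cadm1* did not.

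Cell by cell, 9 of the 61 held a UMI of the cDC1 set (*Xcr1*, *Clec9a*, *Cadm1*, *Naaa*, *Wdfy4*, *Rab7b*) alone, 6 of the cDC2 set (*Cd209a*, *Clec10a*, *Mgl2*, *Itgam*, *Clec4a4*, *Clec12a*) alone, 2 of both and 44 of neither, which is 72.1%. After thinning to 2000 UMIs 50 of 60 cells held neither (83.3%), against 89.9% of T cells, which should lack both sets, and 3.96% of the cDC2-like and 2.38% of the cDC1-like cells, whose gates use genes of these sets. *Xcr1* was found in 0 of the 61 cells, *Clec9a* in 1 and *Cd209a* in 2.

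Most survival genes lay within 2-fold of cDC2-like cells. Counts here that use all cells stand beside 10.3% of all genes higher and 7.91% lower than in cDC2-like cells, and 16.6% and 10.2% over cDC1-like cells. Those without the cells holding fibroblast transcripts stand beside 11.3% higher and 13.3% lower than in cDC2-like cells. Of 17 measured genes of survival and death 5 were higher and 1 lower than in cDC2-like cells, with a median of 0.06 that was -0.07 under TMM scaling. Without the cells holding fibroblast transcripts 6 of 16 were higher and 0 lower, with a median of 0.50, and over cDC1-like cells 5 of 16 were higher and 0 lower. *Serpinb9*, an inhibitor of granzyme B, stood at 346 CPM against 63.1 and 229, next to *Birc2*, *Fas* and *Serpinb6b*. Of 10 measured interferon-stimulated genes 2 were higher and 3 lower, among them the transcription factor *Irf1* (308 against 101 CPM) and, on the lower side, the antiviral effectors *Ifit1*, *Oasl1* and *Rsad2*, while over cDC1-like cells 3 of 5 were higher and 0 lower, with a median of 1.66. Without the cells holding fibroblast transcripts 2 of 9 were higher and 4 lower than in cDC2-like cells. Of 5 measured cell cycle genes 0 were higher and 1 lower, and of 19 immediate early genes, which dissociation of tissue can raise, 0 were past 2-fold in either direction, with a median of -0.17 (1 of 18 higher and 2 lower without the cells holding fibroblast transcripts).

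Of the 15 dendritic cells of Control, the 10 cDC2-like ones are described here and the 5 cDC1-like ones are not. In these 10 cells *Ccr7* had 40 UMIs in 6 cells (456 CPM) and *Fscn1* had 0 UMIs. *Ccl22* had 16 UMIs in 7 of the 10 cells (182 CPM), *Relb* 27 UMIs (308 CPM), *Fabp5* 4 UMIs, *Il4i1* 1 and *Socs2* 0. *Ccr7*, *Ccl22* and *Relb* were thus found in Control cDC2-like cells in the absence of *Fscn1*, in counts too small to bound *Socs2* or *Il4i1* closely. The background of that library was not set beside them.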

How the data were processed

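Single-cell RNA of abdominal aorta was captured in droplets, 1 library per condition. The deposited values were raw UMI counts per gene and barcode, made by the authors with Cell Ranger (8.0.1 in the file headers) on mm10 per the labels; the study's methods name another release and genome build. Barcodes with at least 500 UMIs, 200 genes and under 20% mitochondrial UMIs were retained. Members, gates and gene lists were chosen with earlier results of these data known. Cell types were not clustered but gated on raw UMIs.

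UMIs were summed over the cells of a gate and scaled to CPM. Ratios took genes with at least 50 UMIs over both gates and 0.5 UMI added, with exact conditional binomial intervals, and levels had exact Poisson intervals. No model was fitted, because cells of 1 library are not replicates. Genes with a role in a gate were left out of ratios. Named were, besides genes of the lists, the 15 highest and 10 lowest ratios over cDC2-like cells among 3205 eligible genes, which at least 25% of the cells of the higher population carried. Doublets were kept and scored with Scrublet (in scanpy 1.11.5), and removed as an alternative. Other alternatives were a stricter cell filter, a stricter member rule, thinning to 2000 UMIs, other comparators, scalings, weights, minimum counts and added UMIs, TMM factors coming from edgeR 4.0.16. For shares of cells, cells under 2000 UMIs were left out of the thinned values (1 of the mature, 3 of the cDC2-like and 199 of the T cells). Promoters came from a RefSeq table (GRCm38.p6), matched by symbol. Of the steps, the ratios and their intervals were tested on simulated counts, which had no variation between cells. Python 3.11.15 and R 4.3.3 were used. Values of some genes of the lists are not reported here.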

Additional observations from a re-analysis of the deposited data

How the results depend on the processing

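With 1 library per condition no replicate could be left out and nothing separates animals from treatment. The count of mature cells stayed at 0 in Control, and their shares in AngII+HS stayed within the main counting interval, under every alternative. Against cDC2-like cells, 98 genes were higher and 95 lower with cells thinned to 2000 UMIs, 810 and 543 with a minimum of 20 UMIs, and 78 and 67 with a minimum of 200. Against cDC1-like cells the counts were 78 and 31, 1070 and 560, and 97 and 64 under the same settings. Higher genes were 56.5% of those past 2-fold over cDC2-like cells, 47.2% without the highest Scrublet scores and 49.5% with the stricter member rule. Over cDC1-like cells 262 genes were higher and 233 lower without the highest Scrublet scores (52.9% of those past 2-fold higher), and 292 and 294 without cells holding 20 or more fibroblast-marker UMIs (49.8%), an alternative chosen after seeing the data. All 25 named genes kept their sign under every alternative in which they were measured, but the size of their ratios moved under some. With comparators chosen by *Flt3*, 9 of 22 measured named genes stayed within the range of counting error and 13 did not. After thinning 7 were measured, of which 4 stayed within it, and with a minimum of 200 UMIs 6 were measured. Of the 16 list medians over cDC2-like cells, 16 stayed within the range of counting error under TMM scaling, 9 with comparators chosen by *Flt3*, and 5 after thinning. The main limits are the 61 cells, the 15 dendritic cells of Control, and the fibroblast transcripts in 14 cells, whose source was not tested.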

Other observations

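Genes carried by under 25% of the mature cells were outside the naming rule, and those below were chosen after their values were seen. *Apol7c*, of the apolipoprotein L family, had 106 UMIs in 10 of the 61 mature cells, with up to 33 in a cell, and no UMI in cDC2-like or cDC1-like cells. Its level of 255 CPM was at least 56.5-fold higher than 3 UMIs over the cDC2-like cells and at least 31.8-fold higher than 3 UMIs over the cDC1-like cells. Of its UMIs 14 came from 1 of the 14 cells that held 20 or more fibroblast-marker UMIs.

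Several genes of adventitial fibroblasts or of the acute phase came instead almost wholly from those 14 cells. *Saa3*, an acute-phase protein, had 203 of its 207 UMIs there, with 185 in 1 cell. *Rbp4*, the carrier of retinol, had 288 of 292 UMIs there, *Hp*, which encodes haptoglobin, 139 of 143, and *Pi16*, a marker of adventitial fibroblasts, 59 of 61.

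Among other lists of markers, those of innate lymphoid cells summed to 687 CPM in the mature cells, of which *Il7r* gave 209, with *Il1rl1* and *Ncr1* at 0. The plasmacytoid dendritic cell markers summed to 860 CPM, led by *Tcf4*, the monocyte markers to 1256, led by *Fn1*, the neutrophil markers to 219 and the smooth muscle markers to 1502, led by *Acta2*, against 2909 in cDC2-like cells. Of the 625 smooth muscle marker UMIs of the mature cells 1 cell held 442, the median cell holding 2. The endothelial and erythroid markers summed to 317 and 12.0 CPM.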
